A study of Mus musculus with 46 samples.

Results

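The subventricular zone (SVZ) of the adult mouse makes new neurons throughout life, and 9 genes that mark the steps of this lineage were followed here through loss and early return of microglia. The set, chosen by gene symbol, was Sox2, Nes, Egfr, Dlx1, Dlx2, Sox11, Dcx, Cd24a and Tubb3, which are 9 of the 15695 genes in the SVZ expression table. All 9 passed the filter on low values (at least 1 FPKM in at least 3 libraries), and so were among the 14151 genes tested. In the lineage, stem cells that carry Sox2 acquire EGF receptor as they become active. Nestin is carried by stem and progenitor cells. Dividing progenitors follow, in which the Dlx genes come on. Neuroblasts then leave for the olfactory bulb and carry doublecortin, Sox11, CD24 and class III beta-tubulin. Microglia live in the same niche and depend on signals through the receptor CSF1R.

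By the study's methods the SVZ was micro-dissected from C57BL/6 mice as a thin layer of the walls of the lateral ventricles, and RNA-seq was run on bulk tissue. The labels give the subventricular zone as the tissue, but their extraction text names cortex, hippocampus and thalamus/striatum as the dissected pieces, and this difference could not be resolved here. The control mice (n = 5) received control chow (vehicle), the 14 day PLX3397 mice (n = 5) received chow with PLX3397 at 600 ppm for 14 days, and the 5 day recovery mice (n = 5) received the same 14 days of drug and then 5 days of control chow. PLX3397 inhibits CSF1R and also the related receptors KIT and FLT3, so the drug is not specific to microglia. No group carried a transgene, and the methods give male mice aged 1.5 months unless stated otherwise. Mice in other experiments of the study on the same drug schedule were aged 2 months, and no age is stated for these 3 groups themselves. Each library is taken as 1 mouse. The labels number samples and not animals, so p-values measure only the spread between these samples. Because the tissue is bulk, fewer cells of a type and less RNA per cell cannot be told apart.

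The libraries held between 4574000 and 10609000 counted reads, with medians of 5796000 in control, 9558000 in 14 day PLX3397 and 8238000 in 5 day recovery mice. Microglial genes fell as the design intends: all 8 of 8 listed markers were lower in 14 day PLX3397 mice, with a summed level of 10.95 to 14.2 FPKM against 242 to 344 FPKM in controls, and all 8 were still lower at 5 day recovery (20.6 to 31.0 FPKM). A few libraries stood apart from the rest. Control replicate 1 had a summed choroid plexus level of 21330 FPKM, nearly all of it Ttr, against 15.5 to 126.5 FPKM in the other 14 libraries. The first principal component, which held 24.6% of the variance, set 5 day recovery replicates 4 and 5 (loadings 0.70 and 0.53) apart from the other 13 libraries (-0.24 to 0.07). Where these 3 libraries changed a call, a sign or a spread described here, the value without them is given too.

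None of the 9 genes passed the test for a change with depletion or with early repopulation. At 14 day PLX3397 vs. control, 0 of 9 passed an adjusted p of 0.05 (limma on log2(FPKM + 1), Benjamini-Hochberg over all 14151 genes), where 1.26% of all tested genes did. At 5 day recovery vs. control the count was 0 of 9 against 1.27% of all genes, and at 5 day recovery vs. 14 day PLX3397 it was 0 of 9 against 0.325%. At an unadjusted p under 0.05 the counts were 0, 0 and 1, where 6.12%, 16.6% and 16.5% of all genes passed, and the 1 gene was Sox2. Without the 3 libraries that stand apart the count was again 0 of 9 in each comparison. A second test on the recovered whole reads (voom, chosen after the data were seen) also called 0 of 9 in each comparison, where it called 1.27%, 1.22% and 0.389% of all genes, with 0, 0 and 1 at an unadjusted p under 0.05. In no comparison did the ranges of both groups lie apart for any of the 9, where 2.77%, 3.10% and 3.53% of all genes had ranges that did not overlap.

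On the voom scale of CPM, the 95% intervals of the ratio ran for all 9 genes between 0.726 and 1.62 at 14 day PLX3397 vs. control, between 0.620 and 1.68 at 5 day recovery vs. control, and between 0.617 and 1.55 at 5 day recovery vs. 14 day PLX3397. A p-value above the threshold does not show that the levels were equal. The median log2 difference of the 9 was 0.03, -0.10 and -0.08 in the same order of comparisons, beside 0.006, -0.006 and -0.006 over all tested genes. In the 14 day PLX3397 mice, 6 of the 9 means were above control and 3 below. At 5 day recovery, 4 means were above control and 5 below.

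**Figure D1:**
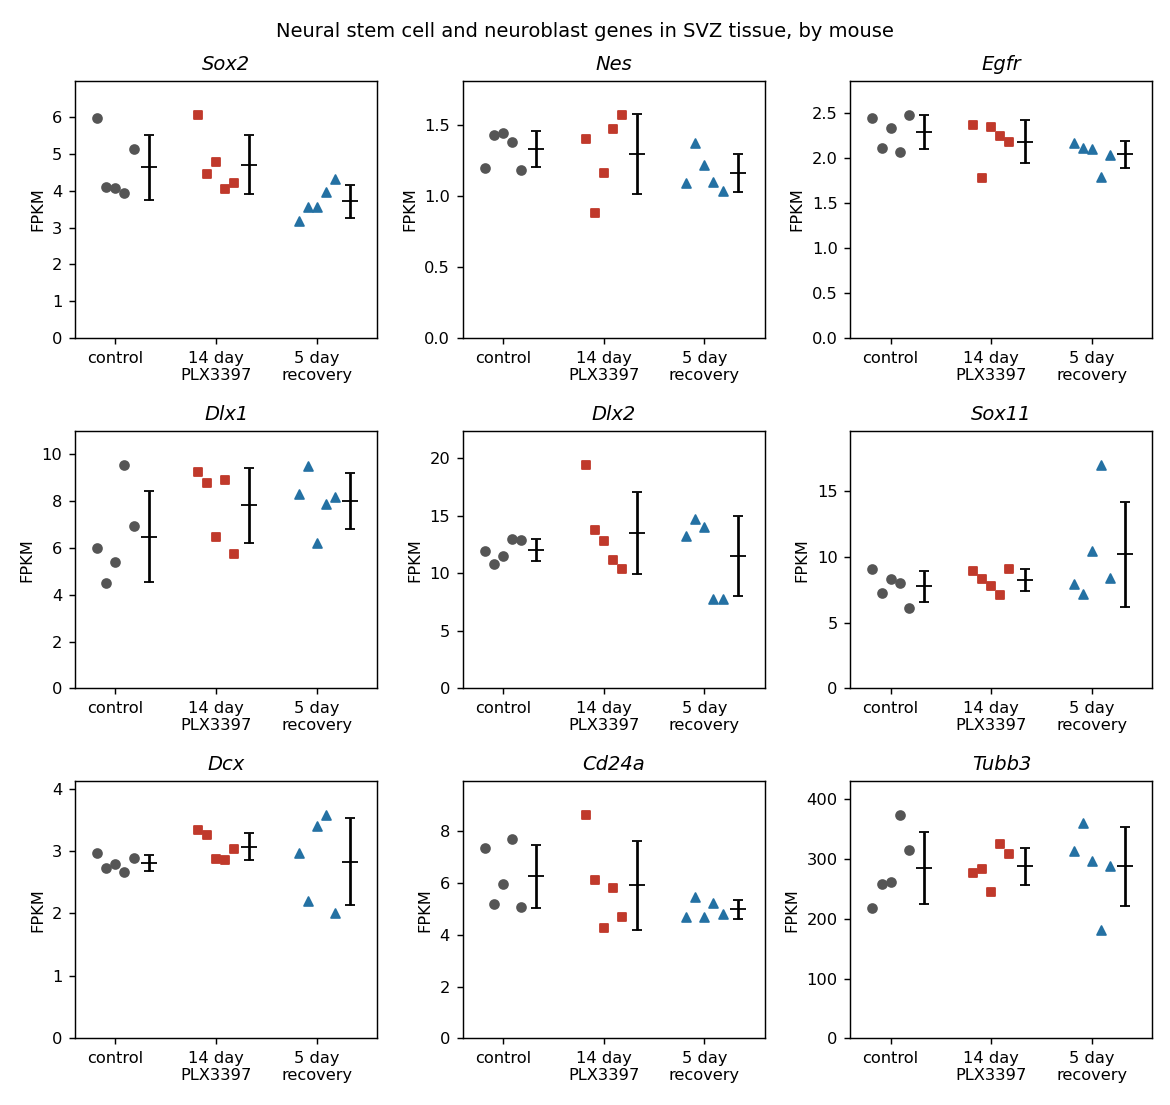
FPKM (y axis, linear from 0) of the 9 genes in each mouse of the 3 SVZ groups, replicates 1 to 5 from left to right within a group; the bar and cap beside the points are the mean and SD (n = 5). The points of the groups overlap in every panel, and 5 day recovery replicate 4 holds both the highest Sox11 (17.01 FPKM) and the lowest Tubb3 (181 FPKM).

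The levels of the genes were far from equal. FPKM is per kilobase of transcript, so levels can be set side by side between genes, as far as the transcript length used holds. In controls Tubb3 was highest with a mean of 285 FPKM, above 98.6% of the tested genes by its mean over the 15 libraries. Next came Dlx2 at 12.01 FPKM, followed by Sox11 (7.75 FPKM), Dlx1 (6.48 FPKM), Cd24a (6.26 FPKM) and Sox2 (4.64 FPKM). The lowest were Dcx at 2.81 FPKM, Egfr at 2.29 FPKM and Nes at 1.33 FPKM, and Nes stood above 7.46% of the tested genes. Among neighbours in this order, Sox11 and Dlx1, Dlx1 and Cd24a, and Cd24a and Sox2 overlapped between the 5 control mice. Tubb3 and Dlx2, Dlx2 and Sox11, Sox2 and Dcx, Dcx and Egfr, and Egfr and Nes did not. The order depended on the length for some genes. The length behind the deposited values was 6438 bases for Egfr and 2779 bases for Dlx1, where GENCODE M21 exons span 10954 and 4111 bases. Per kilobase of the GENCODE length, Egfr in controls was 1.21 to 1.46 and overlapped Nes (1.18 to 1.44), and Dlx1 had a mean of 4.38, below Cd24a (5.59) and Sox2 (5.54).

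Sox2 encodes a transcription factor that keeps neural stem cells in an undifferentiated state (Entrez 20674, GRCm38 chr3:34649995-34652461). Its level was 5.97, 4.09, 4.07, 3.93 and 5.13 FPKM in control replicates 1 to 5, 6.07, 4.45, 4.79, 4.04 and 4.21 FPKM in the 14 day PLX3397 mice, and 3.18, 3.56, 3.55, 3.96 and 4.33 FPKM in the 5 day recovery mice. The recovery values sat at the low end, with 3 of the 5 below every other mouse, but the upper ones reached into both other groups. Between 14 day PLX3397 (4.71 ± 0.807 FPKM, SD, n = 5) and 5 day recovery (3.71 ± 0.442 FPKM) the log2 difference was -0.27 (SE 0.119), with an unadjusted p of 0.0365 and an adjusted p of 0.278 in limma. Against control (4.64 ± 0.886 FPKM) the recovery difference was -0.25 with a 95% interval of -0.50 to 0.002 and an adjusted p of 0.304. Its difference at 14 day PLX3397 vs. control was 0.02 (interval -0.23 to 0.27). Without the 3 libraries that stand apart, recovery vs. 14 day PLX3397 was -0.36, with an unadjusted p of 0.00907 and an adjusted p of 0.386 in limma. Sox2 lies within the span of the noncoding gene Sox2ot, whose level of 16.1 to 30.2 FPKM was higher than that of Sox2 in every library, and whose difference in the same comparison was -0.05 (adjusted p = 0.896). The counting is not stated to use strand, nor how it assigned reads of overlapping genes, so such reads may be shared or lost.

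Nes encodes nestin, the intermediate filament of neural stem and progenitor cells (Entrez 18008, chr3:87971093-87980451). It read 1.20, 1.43, 1.44, 1.38 and 1.18 FPKM in the control mice, 1.398, 0.877, 1.16, 1.47 and 1.57 FPKM in the 14 day PLX3397 mice, and 1.09, 1.37, 1.22, 1.10 and 1.03 FPKM in the 5 day recovery mice. Both the highest and the lowest of the 15 were 14 day PLX3397 mice, and the groups overlapped throughout. The log2 differences were -0.03 (interval -0.23 to 0.18) at 14 day PLX3397 and -0.11 (-0.31 to 0.10) at 5 day recovery, each vs. control. This was the gene with the fewest reads, between 34 and 86 in a library.

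Egfr encodes the EGF receptor, which activated stem cells and dividing progenitors carry (Entrez 13649, chr11:16752203-16913907). Its values were 2.45, 2.10, 2.33, 2.06 and 2.48 FPKM in control, 2.37, 1.77, 2.34, 2.24 and 2.17 FPKM in 14 day PLX3397, and 2.17, 2.11, 2.10, 1.78 and 2.03 FPKM in 5 day recovery mice. This was the most even of the 9 genes, with the highest of 15 libraries 1.4 times the lowest. The mean at 5 day recovery was 89.2% of control, a log2 difference of -0.11 (interval -0.29 to 0.07, adjusted p = 0.504). The 14 day PLX3397 mean was 95.3% of control, a log2 difference of -0.05 (-0.23 to 0.13).

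Dlx1 and Dlx2 encode homeobox factors of the ventral forebrain that act as the SVZ progenitors turn to inhibitory neurons. They are neighbours on chromosome 2, Dlx1 (Entrez 13390) at chr2:71528113-71533981 and Dlx2 (Entrez 13392) at chr2:71543408-71546754, with 9426 bases between them. Dlx1 read 5.98, 4.48, 5.40, 9.56 and 6.96 FPKM in control, 9.25, 8.79, 6.47, 8.88 and 5.75 FPKM in 14 day PLX3397, and 8.29, 9.52, 6.19, 7.88 and 8.16 FPKM in 5 day recovery mice. A single control mouse, replicate 4, held the highest value of all 15, and the other 4 controls were among the lower values. The mean was 6.48 ± 1.94 FPKM in control, 7.83 ± 1.60 FPKM at 14 day PLX3397 and 8.01 ± 1.19 FPKM at 5 day recovery (SD, n = 5 each). The log2 difference was 0.26 (interval -0.10 to 0.61) at 14 day PLX3397 and 0.30 (-0.06 to 0.65, adjusted p = 0.374) at 5 day recovery, each vs. control. With 1 library left out these ran from 0.15 to 0.39 and from 0.19 to 0.43, lowest without control replicate 2 and highest without control replicate 4. The antisense gene Dlx1as overlaps Dlx1 and was listed at 2.59 to 4.77 FPKM, and it was not called in any comparison (adjusted p 0.489 or more). The limit on reads of overlapping genes given for Sox2 holds for Dlx1 too.

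Dlx2 read 11.96, 10.8, 11.5, 12.98 and 12.9 FPKM in control, 19.4, 13.8, 12.8, 11.2 and 10.3 FPKM in 14 day PLX3397, and 13.2, 14.7, 14.1, 7.77 and 7.79 FPKM in 5 day recovery mice. The controls were tight, the 14 day PLX3397 mice were pulled up by replicate 1, and the 5 day recovery mice split into 3 above the highest control and a pair, replicates 4 and 5, below all other libraries. This pair is the one that the first principal component sets apart. The difference at 5 day recovery vs. control was -0.10 (interval -0.49 to 0.28) with all libraries and 0.21 without the 3 that stand apart, so its sign depended on them. Against 14 day PLX3397 it went from -0.23 to 0.08 in the same way, and neither value passed the test.

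Sox11 encodes a transcription factor of newborn neurons (Entrez 20666, chr12:27334268-27342718). It read 9.09, 7.22, 8.33, 8.02 and 6.08 FPKM in control, 8.90, 8.34, 7.78, 7.09 and 9.06 FPKM in 14 day PLX3397, and 7.92, 7.14, 10.5, 17.01 and 8.397 FPKM in 5 day recovery mice. Most mice of all groups lay together, with replicates 3 and 4 of the recovery group above them. The recovery mean of 10.2 ± 4.01 FPKM was 131% of the control mean of 7.75 ± 1.149 FPKM (SD, n = 5 each), a log2 difference of 0.30 (interval -0.06 to 0.67, adjusted p = 0.379). Without recovery replicate 4 alone this was 0.11 (adjusted p = 0.7002), and without the 3 libraries that stand apart it was 0.17. At 14 day PLX3397 vs. control it was 0.08 (-0.28 to 0.45).

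Dcx encodes doublecortin, a microtubule-binding protein of migrating neuroblasts (Entrez 13193, chrX:143855842-143933396). Its values were 2.97, 2.72, 2.79, 2.66 and 2.89 FPKM in control, 3.34, 3.25, 2.88, 2.86 and 3.03 FPKM in 14 day PLX3397, and 2.96, 2.20, 3.40, 3.58 and 2.01 FPKM in 5 day recovery mice. The controls lay close together, whereas the recovery mice held both the lowest and the highest values of the 15. The group means were 2.81 ± 0.126, 3.07 ± 0.219 and 2.83 ± 0.702 FPKM (SD, n = 5 each). The log2 difference from control was 0.10 (interval -0.14 to 0.33) at 14 day PLX3397 and -0.01 (-0.25 to 0.23) at 5 day recovery, and the recovery mean was 101% of the control mean.

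Cd24a encodes the surface protein CD24, carried by neuroblasts and also by ependymal cells (Entrez 12484, chr10:43579169-43584265). It read 7.37, 5.18, 5.97, 7.70 and 5.09 FPKM in control, 8.64, 6.12, 4.28, 5.82 and 4.70 FPKM in 14 day PLX3397, and 4.71, 5.48, 4.68, 5.24 and 4.82 FPKM in 5 day recovery mice. The recovery mice were close together near the lower end of both other groups. Their mean, 4.98 ± 0.358 FPKM, was 79.6% of the control mean of 6.26 ± 1.22 FPKM, a log2 difference of -0.27 (interval -0.58 to 0.05, adjusted p = 0.365). The difference at 14 day PLX3397 vs. control was -0.09 (-0.40 to 0.22).

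Tubb3 encodes class III beta-tubulin, made by neuroblasts and by mature neurons alike (Entrez 22152, chr8:123411553-123422015). Its values were 218, 258, 261, 374 and 315 FPKM in control, 276, 283, 245, 325 and 308 FPKM in 14 day PLX3397, and 314, 360, 296, 181 and 288 FPKM in 5 day recovery mice. High and low mice occurred in each group, and the lowest was 5 day recovery replicate 4. The group means, 285.4 ± 60.3, 287.5 ± 30.9 and 287.6 ± 65.9 FPKM (SD, n = 5 each), lay within 1% of each other, and the interval of the difference from control was -0.32 to 0.38 at 14 day PLX3397 and -0.35 to 0.35 at 5 day recovery.

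**Figure D2:**
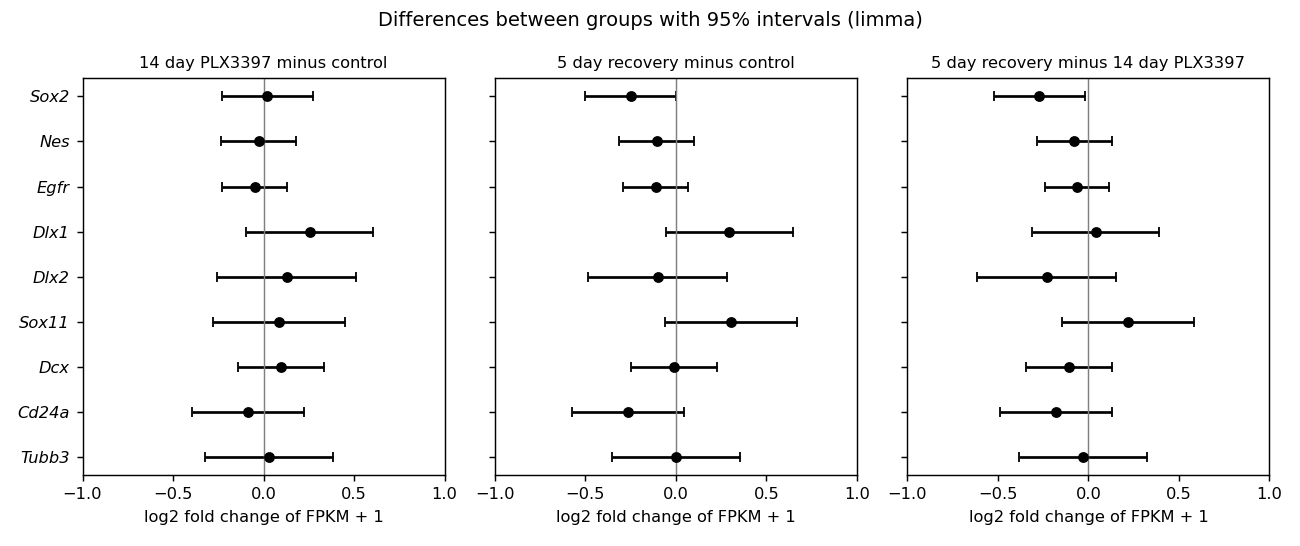
Log2 fold change of FPKM + 1 (x axis) with its 95% limma interval for the 9 genes (y axis) in the 3 comparisons; points right of 0 are higher in the group named first. Every interval crosses 0 except Sox2 at 5 day recovery minus 14 day PLX3397 (-0.52 to -0.02), which did not pass adjustment (adjusted p = 0.278).

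The dissected tissue held more than the germinal niche. A set of 10 striatal projection neuron markers, among them Ppp1r1b and Drd1, summed to between 1853 and 3961 FPKM in the 15 libraries, while 10 ependymal markers, which line the ventricle itself, summed to between 85.5 and 190 FPKM. The striatal sum was 1853 to 3961 FPKM in control, 1969 to 3744 FPKM in 14 day PLX3397 and 1988 to 3343 FPKM in 5 day recovery mice, so its spread within each group was larger than the distance between groups. Mature neuron markers, at 1352 to 1954 FPKM over 8 genes, were also present in every library. The sources differ on the dissection, as given above, and its part in these sums was not tested.

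The highest Dlx1 levels came with the lowest striatal sums. The 4 libraries with the lowest striatal sums, 1853 FPKM in control replicate 4, 1969 FPKM in 14 day PLX3397 replicate 4, 1988 FPKM in 5 day recovery replicate 2 and 2416 FPKM in 14 day PLX3397 replicate 1, were also the 4 with the highest Dlx1, at 9.56, 8.88, 9.52 and 9.25 FPKM. They come from all 3 groups. The lowest Dlx1 (4.48 FPKM, control replicate 2) had a striatal sum of 3616 FPKM. The other libraries were less ordered, since control replicate 1 had a low Dlx1 (5.98 FPKM) at a sum of 2843 FPKM, and 5 day recovery replicates 5 and 4 had 8.16 and 7.88 FPKM at sums of 3304 and 3343 FPKM. This pairing was noticed after the values were seen and is given as a description, and the part of the dissection in it was not tested.

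**Figure D3:**
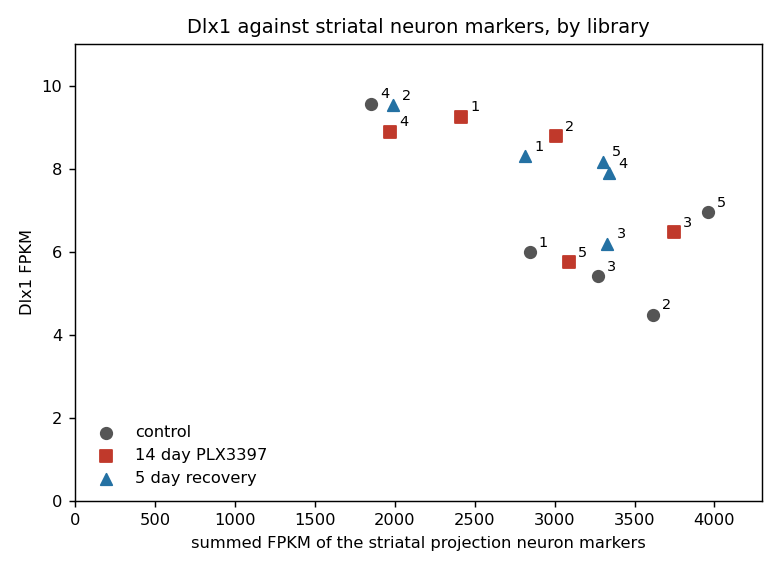
Dlx1 FPKM (y axis) against the summed FPKM of 10 striatal projection neuron markers (x axis) in the 15 SVZ libraries, with the replicate number beside each point. The 4 libraries with sums of 1853 to 2416 FPKM have the 4 highest Dlx1 levels, 8.88 to 9.56 FPKM, and belong to all 3 groups.

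Spread between mice was set against the spread that read counting alone gives. In controls, the coefficient of variation of Dcx was 4.50%, below the 8.26% of counting error, and Egfr and Nes were below it too, so the control mice could not be told apart on these 3 genes at this depth. At 5 day recovery 3 genes were below counting error as well, and at 14 day PLX3397 0 were. The 3 were Egfr (7.415% against 10.01%), Nes (11.45% against 13.51%) and Cd24a (7.175% against 11.97%). The Dcx spread at 5 day recovery was 24.8% against 7.06% from counting. Sox11 had the widest spread of any gene and group, 39.4% at 5 day recovery against 3.81% from counting. Over 5 day recovery replicates 1 to 3, without the pair that stands apart, the spread was 21.2% for Dcx, 20.5% for Sox11, 5.37% for Dlx2 (29.9% with all 5) and 10.2% for Tubb3 (22.9% with all 5). Over the 9 genes the spread was more than 2 times the counting error for 3 genes in control, 5 in 14 day PLX3397 and 4 in 5 day recovery mice. These figures cover counting error only, since the reads carry no molecular identifiers.

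**Figure D4:**
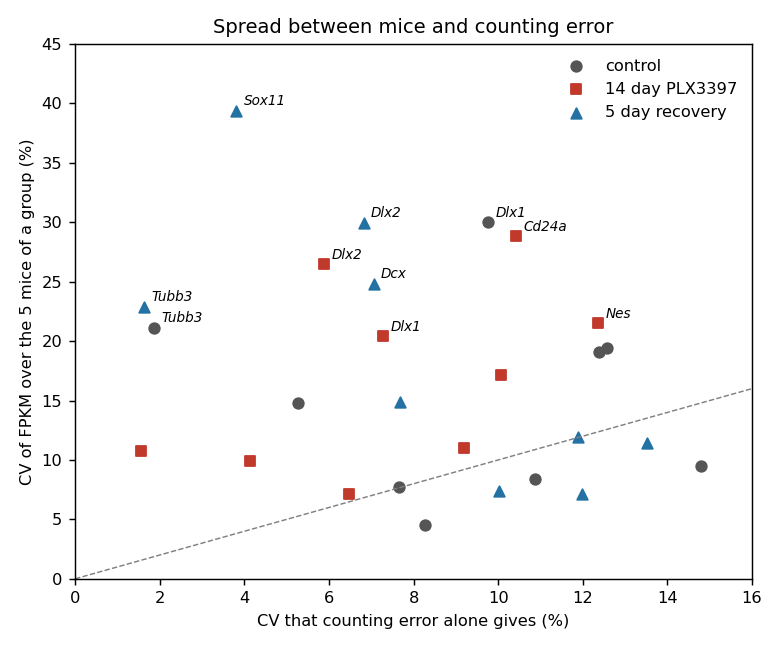
Coefficient of variation of FPKM over the 5 mice of a group (y axis, %) against the value that counting error alone gives (x axis, %), 1 point per gene and group; the dashed line marks equal values, and genes above 20% are named. Sox11 at 5 day recovery lies highest (39.4% against 3.81%). Below the line lie 3 genes in control, among them Dcx (4.50% against 8.26%), and 3 genes in 5 day recovery mice.

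Whether the lineage genes moved together from mouse to mouse was asked of Dcx and the other 8. None of the 8 relations over the 15 libraries passed an adjusted p of 0.05 (2-sided permutation test, 100000 resamples, Benjamini-Hochberg over 8). The strongest was with Sox11, at Pearson r = 0.54 (permutation p = 0.0516, adjusted 0.348) and Spearman rho = 0.63 (permutation p = 0.0141, adjusted 0.113). As deviations from the group means r was 0.68 (permutation p = 0.0719, adjusted 0.575). Without the 2 libraries farthest from the median of Dcx, 5 day recovery replicates 5 and 2, r over the libraries was 0.75. With 1 library left out, r with Sox11 ran from 0.39 to 0.68. With Tubb3, r was -0.46 (permutation p = 0.0869, adjusted 0.348) and rho was -0.40 (permutation p = 0.142, adjusted 0.570). This r ran from -0.57 to -0.27 with 1 library left out. The other 6 had an r between -0.12 and 0.23. These were not stable to the same 2 libraries: without them Egfr went from -0.10 to -0.45, Nes from -0.10 to -0.43, Dlx1 from -0.12 to 0.26, Dlx2 from 0.23 to 0.027, Cd24a from 0.14 to -0.023 and Sox2 from 0.17 to 0.063, while Tubb3 was -0.47.

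By Pearson r of log2(FPKM + 1) over the 15 libraries, the gene most like Dlx1 was Ngb (neuroglobin, r = 0.96), followed by Maged1 (0.94) and Tmem255a (0.94). For Tubb3 these were Amph (0.95), Prkar1b (0.93) and Stmn3 (0.93), for Dlx2 Ablim3 (0.94), Pnmal2 (0.91) and Cdh2 (0.88), and for Sox11 Nufip2 (0.92), Klhl24 (0.89) and Pdcd4 (0.89). For Dcx they were Gm21505 (0.86), Arid3b (0.86) and Ranbp2 (0.83), for Sox2 Zxdc (0.85), Siah2 (0.85) and Ccdc74a (0.84), and for Cd24a Zfp410 (0.83), Tsnaxip1 (0.82) and Map3k19 (0.81). For Egfr they were Hlcs (0.80), Mtmr11 (0.76) and Shc1 (0.76), and for Nes Nhsl1 (0.75), Zscan20 (0.73) and Pstpip1 (0.72). These are the highest r among all tested genes over only 15 libraries, so high values can also arise by chance. They are given as a description and were not tested. No gene of the set was among the 3 most alike to another.

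Around the 9 genes, the wider lineage was covered by lists of other stem cell, progenitor and neuroblast genes. Of 20 further neural stem cell genes, all tested, 1 rose and 0 fell at 14 day PLX3397 vs. control, and likewise at 5 day recovery vs. control. At an unadjusted p under 0.05 the counts were 4, 6 and 2 of 20 in the 3 comparisons in order, where 6.12%, 16.6% and 16.5% of all genes passed. Both times the called gene was Gfap, the intermediate filament of SVZ stem cells and of reactive astrocytes. Gfap read 48.2 to 74.9 FPKM in controls, 112 to 171 FPKM in 14 day PLX3397 and 114 to 232 FPKM in 5 day recovery mice, so neither treated group overlapped the controls. Its log2 difference was 1.11 (SE 0.178, adjusted p = 0.00128) and 1.39 (SE 0.178, adjusted p = 0.000131). Between 14 day PLX3397 and 5 day recovery the Gfap ranges overlapped, with a difference of 0.28 (SE 0.178, adjusted p = 0.444), and 0 of the 20 genes were called by limma or by voom. The summed level of 6 other astrocyte markers was 249 to 286 FPKM in control, 281 to 305 FPKM in 14 day PLX3397 and 301 to 362 FPKM in 5 day recovery mice, with 0 of 6 called in any comparison by limma or voom (0, 3 and 2 at an unadjusted p under 0.05 in the 3 comparisons in order). The part of astrocytes in the Gfap values was not tested. The list's median difference was -0.02 at 14 day PLX3397 and -0.01 at 5 day recovery. Vcam1, an adhesion protein of stem cells, was next in size in the recovery comparison at -0.49 and was not called (adjusted p = 0.195). Control replicate 1, a library that stands apart, read 27.75 FPKM against 11.9 to 20.8 FPKM in the other controls, and without it the Vcam1 difference was -0.31 (adjusted p = 0.296).

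Of 18 transit-amplifying progenitor and cell cycle genes, 16 were tested. Ccnd1, which encodes cyclin D1, was the 1 that fell at 14 day PLX3397, and it was the 1 that rose from there to 5 day recovery. It read 10.4, 13.02, 12.6, 11.8 and 13.7 FPKM in control, 6.01, 6.46, 7.09, 10.4 and 9.37 FPKM in 14 day PLX3397, and 13.8, 12.4, 14.5, 11.8 and 14.3 FPKM in 5 day recovery mice. The log2 difference was -0.61 (SE 0.127, adjusted p = 0.0183) and then 0.72 (SE 0.127, adjusted p = 0.0185), and at 5 day recovery vs. control it was 0.11 (adjusted p = 0.673). The first call was lost on leaving out control replicate 2, 3 or 5 or 14 day PLX3397 replicate 1, 2 or 3 (adjusted p 0.0548 to 0.0744), and the second on leaving out 14 day PLX3397 replicate 1, 2 or 3 or 5 day recovery replicate 5 (0.0584 to 0.0738) or all 3 libraries that stand apart (0.0814). Oligodendrocyte precursor markers, which belong to another dividing cell of the tissue, summed to 37.9 to 53.1 FPKM in control, 19.4 to 30.6 FPKM in 14 day PLX3397 and 23.5 to 30.0 FPKM in 5 day recovery mice over 6 genes, and their part in the Ccnd1 values, like that of the microglial genes, was not tested. At 5 day recovery vs. control 0 of the 16 were called by limma or by voom, with 1 at an unadjusted p under 0.05, where 16.6% of all genes passed.

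Of 28 further neuroblast genes, all tested, 0 were called in any comparison by limma or by voom. Some of these genes, like Tubb3, are also made by mature neurons, whose part in the values was not tested. At an unadjusted p under 0.05 the counts were 0, 4 and 2 of 28 for 14 day PLX3397 vs. control, 5 day recovery vs. control and 5 day recovery vs. 14 day PLX3397. Of all genes 6.12%, 16.6% and 16.5% passed. The median difference was 0.08, 0.04 and -0.005, beside 0.006, -0.006 and -0.006 over all tested genes. At 14 day PLX3397 22 of the 28 log2 differences from control were above 0, beside 6 of 9 in the set. The largest difference at 5 day recovery vs. control was that of Elavl4, an RNA-binding protein of neurons, at 0.55 (adjusted p = 0.172). Elavl4 passed only without control replicate 4 (0.69, adjusted p = 0.0498) among the fits that left out 1 library.

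For Egfr, the ligands and the related receptors were also followed. Of 10 such genes 6 were tested and 0 were called by limma or by voom in any comparison. At an unadjusted p under 0.05 there were 1, 1 and 2, where 6.12%, 16.6% and 16.5% of all genes passed. At 5 day recovery vs. control all 6 differences were below 0 (median -0.17), and at 14 day PLX3397 vs. control 3 were above 0 and 3 below. Tgfa, a ligand of the receptor, stood at 29.3 ± 6.61 FPKM in control, 24.9 ± 3.19 FPKM in 14 day PLX3397 and 24.8 ± 3.45 FPKM in 5 day recovery mice (SD, n = 5 each). The largest difference was that of Erbb3, a neuregulin receptor, at -0.51 for 5 day recovery vs. 14 day PLX3397 (adjusted p = 0.1003).

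**Figure D5:**
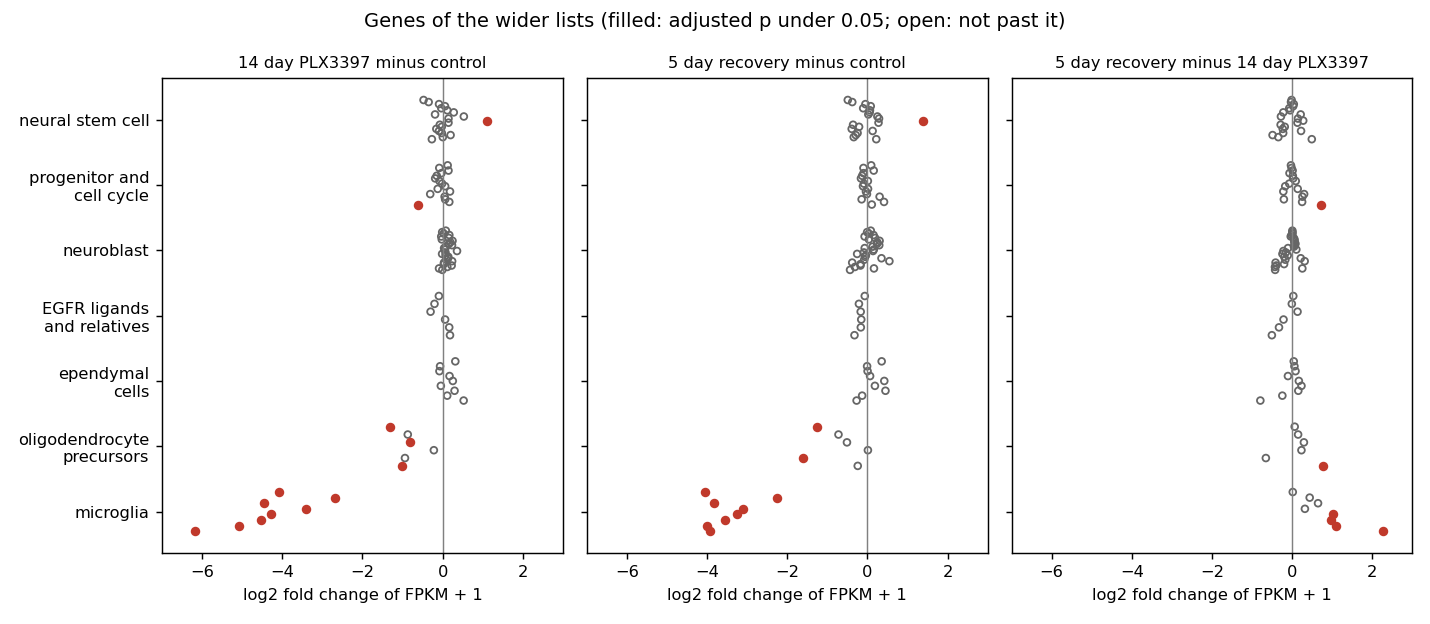
Log2 fold change of FPKM + 1 (x axis) of each tested gene of 7 lists (rows) in the 3 comparisons; filled points have an adjusted p under 0.05 and open points do not. Neural stem cell, progenitor, neuroblast, EGFR-related and ependymal genes lie between -0.79 (Foxj1, not called) and 0.72 (Ccnd1) apart from Gfap (1.11 and 1.39), and of these genes Gfap and Ccnd1 are the filled points, while microglial genes lie far to the left against control.

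Other cell types of the tissue set the scale. At 14 day PLX3397 vs. control, 3 of 6 oligodendrocyte precursor genes fell, namely Pdgfra (-1.01, adjusted p = 3.9e-06), Cspg4 (-0.80, adjusted p = 0.00582) and Neu4 (-1.32, adjusted p = 5.5e-05). Without the 3 libraries that stand apart the count was 4 of 6. At 5 day recovery vs. control 5 of 6 differences were below 0 and 2 of them were called, Neu4 (-1.26) and Gpr17 (-1.60), and Pdgfra rose by 0.77 from 14 day PLX3397 (adjusted p = 0.00097). By limma and by voom, 0 of 9 ependymal, 0 of 10 striatal neuron, 0 of 8 mature neuron, 0 of 6 endothelial, 0 of 7 pericyte and fibroblast and 0 of 5 choroid plexus genes were called in any comparison. At an unadjusted p under 0.05 the limma counts in order were 0, 1 and 0 ependymal, 0, 1 and 1 striatal, 0, 3 and 1 pericyte and fibroblast and 1, 1 and 0 choroid plexus genes, and 0 of the other lists. The shares over all genes in the same order were 6.12%, 16.6% and 16.5%. The 8 oligodendrocyte genes were all above control at 14 day PLX3397 (median difference 0.35, 4 at an unadjusted p under 0.05, 0 called) and all below 14 day PLX3397 at 5 day recovery (median -0.35, 4 at an unadjusted p under 0.05, 1 called). At 5 day recovery vs. control the median was -0.10, with 1 at an unadjusted p under 0.05. Their summed level was 2798 to 3701 FPKM in control, 3260 to 5926 FPKM in 14 day PLX3397 and 2510 to 3846 FPKM in 5 day recovery mice, and the part of these cells in the values of the 9 genes was not tested. The called gene, Cldn11, was lower at 5 day recovery than at 14 day PLX3397 (-0.63), a call lost without 14 day PLX3397 replicate 1 or 2 or 5 day recovery replicate 1 or 4 (adjusted p 0.0517 to 0.0891), and also without the 3 libraries that stand apart (-0.58, adjusted p = 0.151). The microglial loss in these mice had a median log2 difference of -4.37 at 14 day PLX3397 and -3.69 at 5 day recovery over 8 genes, while the largest differences from control among the 9 lineage genes were 0.30 for Sox11 (0.11 without 5 day recovery replicate 4) and 0.30 for Dlx1 (0.19 without control replicate 2), both at 5 day recovery, and neither passed the test.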

How the data were processed

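The authors extracted RNA from SVZ tissue with RNeasy kits, made Smart-seq2 and Nextera libraries, and ran STAR for alignment and featureCounts for gene counts (the submitters' processing notes name STAR, featureCounts, edgeR, limma and mm10). The labels' extraction text names another dissection (cortex, hippocampus and thalamus/striatum) and read length than the paper's methods, which were followed here. The authors deposited FPKM per gene, normalised to depth and gene length. Steps in low FPKM values gave whole reads for 99.987% of genes (tolerance 0.01 read), and so each library's depth. Coordinates are those of RefSeq on GRCm38.p6. In the table, 25 symbols turned into dates were replaced through the Entrez ID.

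Groups followed the labels. limma 3.58.1 (R 4.3.3) was fitted to log2(FPKM + 1) of 14151 genes with at least 1 FPKM in at least 3 libraries, with a variance trend and 1 fit for all 15 libraries, so a fold change understates that of low genes. Calls needed a Benjamini-Hochberg adjusted p under 0.05. The authors' sources give the same expression limit, in RPKM, and the same threshold, but for protein-coding and long noncoding RNA genes. No restriction by gene type was applied here. The script was tested on simulated data. No 2 SVZ libraries held identical values.

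The genes and lists were chosen with earlier results of these data known. All 9 genes are named. Genes of the lists are named where called, or among the largest differences of their list, and the 3 genes most alike to each of the 9 by Pearson r. Tgfa, Sox2ot, Dlx1as, Ppp1r1b, Drd1, Foxj1 and Ttr were named outside this rule after their values were seen. Alternatives covered the pseudocount, filter, scaling, variance trend, groups in the fit, replicate block and each left-out library. Voom and the fit without 3 libraries were added after the data were seen. The deposited tables of sorted myeloid cells, also FPKM, were used for levels only. Some list genes are not reported here.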

Additional observations from a re-analysis of the deposited data

How the results depend on the processing

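The 9 genes gave 0 calls in each comparison under all 24 other settings, and their smallest adjusted p over 648 values was 0.178. The genes called over the whole table were 179, 180 and 46 for 14 day PLX3397 vs. control, 5 day recovery vs. control and 5 day recovery vs. 14 day PLX3397. Leaving out 1 library gave 153 to 180, 153 to 330 and 23 to 86, with 330 and 86 both without 5 day recovery replicate 3 and under 30 without 14 day PLX3397 replicate 1, 2, 3 or 4 (26, 23, 24 and 27) or 5 day recovery replicate 4 or 5 (29 each). The third count was 29 with only the groups compared in the fit and 28 without the 3 libraries that stand apart. Fewer samples enter these fits. The replicate numbers did not pair the libraries (correlations of same-numbered libraries from -0.16 to 0.49), and with the replicate block the counts were 166, 201 and 32 genes and 0, 0 and 0 of the 9.

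Among the 9 genes, 11 of 27 differences changed sign under some setting, the largest of them 0.23 in size (Dlx2, 5 day recovery vs. 14 day PLX3397), and the cause was not tested. For 5 day recovery vs. control, Dcx was 0.08 under quantile normalization, 0.039 under median centring and 0.022 without the 3 libraries (-0.08 to 0.072 with 1 library left out), Dlx2 was 0.21 without the 3 (-0.20 to 0.015), Tubb3 was -0.085 under quantile normalization (-0.0897 to 0.16), and Sox2ot was -0.0001 under quantile normalization and -0.21 without the 3 (-0.076 to 0.11). For 5 day recovery vs. 14 day PLX3397, Dlx2 was 0.079 and Tubb3 0.17 without the 3, Tubb3 was 0.011 under median centring (-0.12 to 0.13), and with 1 library left out Dlx1 was -0.052 to 0.12 and Sox2ot -0.14 to 0.064. For 14 day PLX3397 vs. control, Tubb3 was -0.061 without the 3 (-0.061 to 0.13), and with 1 library left out Cd24a was -0.22 to 0.0014, Dlx2 -0.0026 to 0.21, Nes -0.0703 to 0.043, Sox2 -0.0585 to 0.10, Sox2ot -0.052 to 0.15 and Dlx1as -0.053 to 0.0945. Pearson r with Dcx was -0.059 for Cd24a and 0.0082 for Dlx1 under quantile normalization. With 1 library left out it was -0.031 to 0.23 for Cd24a, -0.22 to 0.035 for Dlx1, -0.14 to 0.56 for Dlx2, -0.28 to 0.14 for Egfr and -0.41 to 0.046 for Nes. Ccnd1 lost both calls with only the groups compared in the fit (adjusted p 0.0622 and 0.0746), and the second without the 3 libraries (adjusted p 0.0814). Cldn11 lost its call with only the groups compared (adjusted p 0.102), with the replicate block (adjusted p 0.0784) and without the 3 libraries (adjusted p 0.151). Depth limits Nes, Sox2, Cd24a and Egfr most, which had a median of 57, 76, 80 and 111 reads a library.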

Other observations

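Levels of some of the 9 genes were also read in myeloid cells (CD11b+CD45int) sorted from brain, from tables normalised separately from the SVZ table and not tested against it. Dlx1 and Sox2 were not analysed in these cells, and Dlx2 and Egfr in the second set only. In 24 libraries of control and white matter repopulating cells with or without LPS, Dcx stood at 0 to 0.270 FPKM and was listed at 0 in 6, Sox11 at 0 to 0.182 FPKM, Tubb3 at 0 to 2.09 FPKM and Nes at 0 to 1.33 FPKM. Cd24a stood at 0.0887 to 6.99 FPKM, with the highest median of these 5 genes over the 24 libraries (1.74 FPKM), although in the repopulating cells labelled 6hr its median of 0.440 FPKM was below that of Tubb3 (0.953 FPKM). In 7 libraries of control and GLOBAL repopulation cells, Cd24a stood at 3.17 to 24.5 FPKM, Nes at 1.0 to 2.42 FPKM, Tubb3 at 0.214 to 2.42 FPKM, and Dcx, Sox11, Dlx2 and Egfr each had a median under 0.5 FPKM. In SVZ tissue Cd24a stood at 4.28 to 8.64 FPKM and Nes at 0.877 to 1.57 FPKM, within or near the range of the sorted cells, whereas Dcx (2.01 to 3.58 FPKM), Sox11 (6.08 to 17.01 FPKM) and Tubb3 (181 to 374 FPKM) lay above every sorted library.

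A check of the 27 gene and group combinations for a single mouse far from the other 4 (Dixon's gap over range) found 0, although chance alone gives about 1 in 20. The 5 day recovery pair with the lowest Dlx2 (7.77 and 7.79 FPKM) differed from each other in Dcx (3.58 and 2.01 FPKM), Sox11 (17.01 and 8.397 FPKM) and Tubb3 (181 and 288 FPKM).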
